A study of Mus musculus with 4 samples.

Results

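The mitochondrial ribosomal protein genes were taken as every gene symbol of the form Mrpl or Mrps followed by a number and at most 1 letter, found once in each of the 2 deposited tables. This gave 78 genes of the 22554 found once in each table, 29 named Mrps and 49 named Mrpl, and all 78 passed the filter on low values. They were followed in RAW264.7 cells, a mouse macrophage line, of which 2 libraries came from cells kept alone (mock) and 2 from cells cocultured with CT26, a mouse colon carcinoma line. Replicate 1 of both groups forms pair 1 and replicate 2 forms pair 2, each in its own table, so coculture was compared with mock within a pair. No transgene, deletion or further agent is named for either group, and neither the length of the coculture nor the way the macrophages were parted from the tumour cells is stated in the labels.

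Mitochondria carry their own ribosome, which makes the few proteins encoded by mitochondrial DNA, all of them subunits of the respiratory chain and ATP synthase. Its RNAs come from the mitochondrial genome, while every one of its proteins is encoded in the nucleus, made in the cytosol and imported. A part of these proteins descends from the bacterial ribosome, and the others are found in mitochondria only. Promoters of these genes are known for sites of the nuclear respiratory factor NRF1 and of the ETS factor GABPA, and macrophages are known to shift between respiration and glycolysis when they are activated.

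Read depth was estimated at 12100000 to 16100000 per library, and 9927 to 10084 genes reached 1 FPKM (fragment counts divided by gene length and library size). All 10 macrophage markers, among them Csf1r and Cd68, stood above 6 FPKM in every library. The 14 epithelial and mesenchymal markers summed to 0.733 and 0 FPKM in mock and to 0.510 and 0.107 FPKM in coculture, with Epcam, Krt18, Krt20, Cldn4 and Col3a1 listed at 0 in all 4 libraries. Each difference is the coculture value less the mock value of the same pair, in log2(FPKM + 1), and the mean of both pairs where none is named. Tests come from limma, blocked by pair, with Benjamini-Hochberg adjustment over the 10202 genes tested. The labels do not say that replicates are separate cultures, and the p-values then reflect only how these libraries vary, possibly for technical reasons.

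The promoters of the genes at either end of the response are shown first, since they are the nearest regulatory sequence to the values that follow. Each runs from 100 bases before to 20 bases after the annotated start, 5′ to 3′ on the gene's strand, from RefSeq on GRCm38.p6. Mrpl52 (chr14:54426809-54426928, plus strand) and Mrps10 (chr17:47369097-47369216, plus strand) had the highest differences, ranked by the smaller of the pairs among genes of 1 direction in both, and Mrps26 (chr2:130563657-130563776, plus strand) and Mrpl42 (chr10:95501930-95502049, minus strand) the lowest. Capitals mark matches to the NRF1 motif GCGCANGCG or the ETS motif CCGGAAGT on either strand.
Mrpl52: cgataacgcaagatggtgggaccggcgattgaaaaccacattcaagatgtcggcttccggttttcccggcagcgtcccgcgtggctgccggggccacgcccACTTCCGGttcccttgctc
Mrps10: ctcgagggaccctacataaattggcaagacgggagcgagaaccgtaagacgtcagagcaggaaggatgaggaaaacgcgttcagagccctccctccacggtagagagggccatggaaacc
Mrps26: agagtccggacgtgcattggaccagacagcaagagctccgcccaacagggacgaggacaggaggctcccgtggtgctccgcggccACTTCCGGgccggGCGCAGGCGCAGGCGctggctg
Mrpl42: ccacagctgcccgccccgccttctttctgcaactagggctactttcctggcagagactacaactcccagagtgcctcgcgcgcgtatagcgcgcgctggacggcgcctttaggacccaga
Mrpl52 and Mrps26, the gene with the highest difference and the gene with the lowest apart from Mrps36, both carried an ETS match close to the start. Mrps26 also carried 2 overlapping NRF1 matches, while Mrps10 and Mrpl42 had no match in this stretch.

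Matches were counted over the whole 300-base window (250 bases before and 50 after the start), with YY1 (ATGGCGGC) and the E-box (CACGTG) as further motifs, and none of the 4 motifs contains another. RefSeq windows were found for 69 of the 78 genes, 75 windows in all. NRF1 letters were in 21.3% of these windows and in 6.25% of all 32851 windows. ETS letters were in 16.0% of the genes' windows against 3.89% of all windows, YY1 letters in 16.0% against 2.24%, and the E-box in 9.33% against 7.15%. The 16 genes with an NRF1 match had a median difference of 0.0072, the 12 with an ETS match 0.024, and the 31 with none of the motifs 0.012. The 12 genes with a YY1 match had a median of 0.0035, so genes with and without the first 3 motifs had nearly the same median. The 5 with an E-box had a median of -0.13, which is the value of Mrpl36. That gene was listed at 0.144 FPKM in mock 1 and at 0 in coculture 1, so this median says little about the E-box.

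The genes as a group stood at nearly the same level in mock and cocultured macrophages. Their summed FPKM was 3752 in mock 1 and 3866 in coculture 1, and 3285 in mock 2 and 3292 in coculture 2. As a share of the FPKM of all genes found once in each table, this was 0.973% and 0.962% in pair 1 and 0.874% and 0.845% in pair 2. The level of the median gene was 41.6 FPKM in mock 1 against 42.0 in coculture 1, and 36.9 in mock 2 against 36.1 in coculture 2. In bulk samples such as these, fewer cells of a type and less RNA per cell cannot be told apart.

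The median difference over the 78 genes was 0.01 (pair 1, 0.02; pair 2, -0.02), beside -0.07 over all tested genes (-0.09 and -0.06 in the pairs). Of the 78, 0 were called higher and 0 lower in limma at an adjusted p under 0.05, where 0.127% of all tested genes were called higher and 0% lower. With limma's unadjusted p under 0.05, 1 was higher (Mrpl52) and 0 were lower, where the shares over all tested genes were 5.26% and 9.45%. The sign was higher in both pairs for 21 genes and lower in both for 24, where 21.5% of tested genes were higher and 42.2% lower in both, and it differed between the pairs for 33 (35.8% of tested genes). After median centring of each library, which lifted the median of all tested genes to about 0, 33 were higher in both pairs and 11 lower, where 30.2% of tested genes were higher and 32.2% lower in both.

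**Figure D1:**
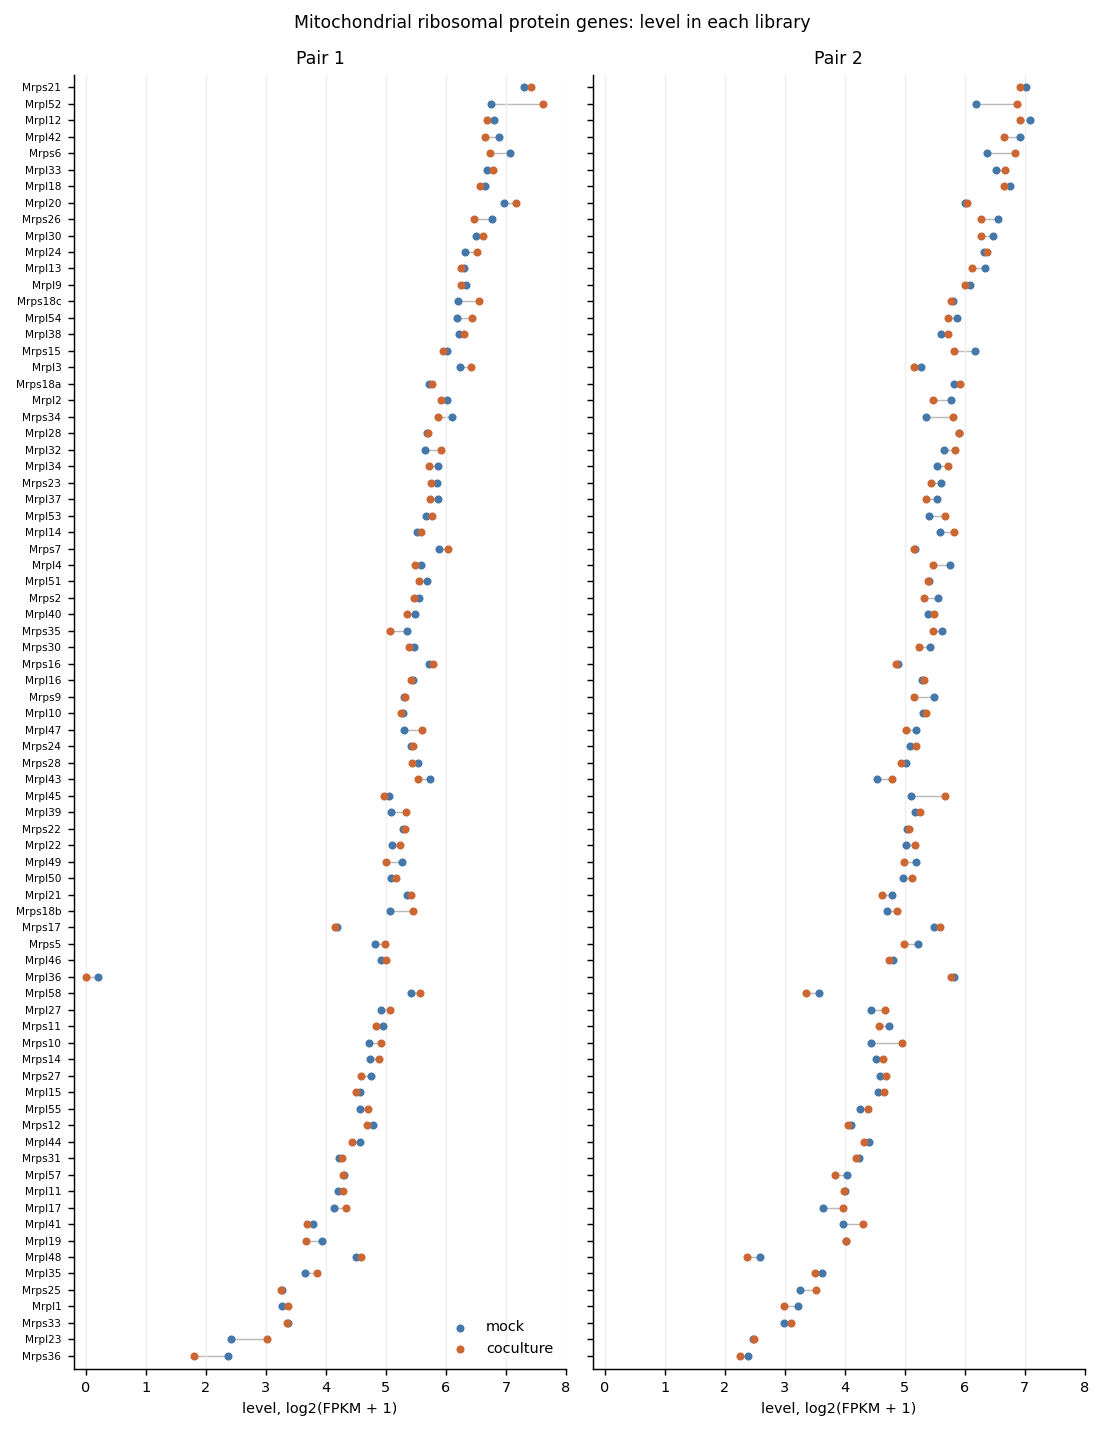
Level of each of the 78 genes on the log2(FPKM + 1) scale, ordered by mean FPKM over the 4 libraries, in pair 1 (left) and pair 2 (right), with mock in blue, coculture in orange and a grey line joining them. Most points of a pair nearly coincide, Mrpl52 is the widest gap in both panels, and Mrpl36 lies near 0 in pair 1 only.

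The intervals around these differences were narrow for most members. The median gene had a limma 95% interval of ±0.32 around its difference. For 77 of the 78 genes the whole interval lay within a 2-fold change in either direction, a width that 86.2% of all tested genes met. For 69 genes it lay within 1.5-fold, which 46.0% of all tested genes met. The members also stood at a higher level, with a median of 41.6 FPKM in mock 1 against 14.9 over all tested genes. Of 77 tested nuclear-encoded respiratory chain genes, 77 met the 2-fold width and 68 the 1.5-fold width. Of 80 tested cytosolic ribosomal protein genes, 80 and 61 did. These intervals use limma's moderated error, which borrows spread across genes because each gene has 1 residual degree of freedom. Changes within an interval remain possible, and the intervals set no limit of detection for the adjusted test. Mrpl52, with a difference of 0.77, did not pass that test (limma adjusted p = 0.127).

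**Figure D2:**
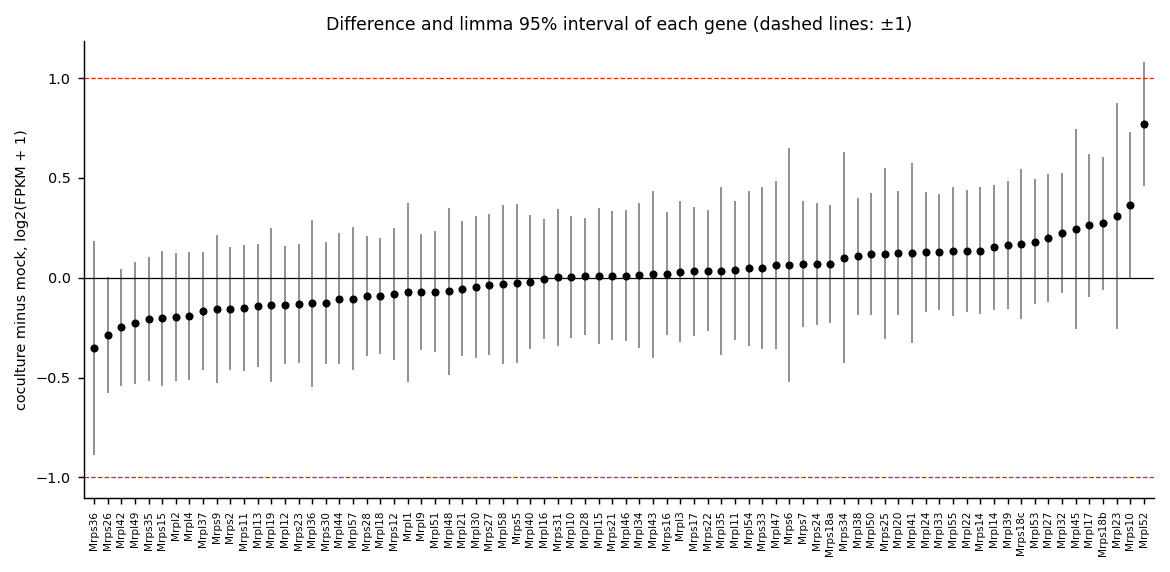
Difference (coculture minus mock, mean of the pairs, log2(FPKM + 1)) of each of the 78 genes as a point with its limma 95% interval as a bar, ordered by size, with dashed lines at a 2-fold change. All intervals but that of Mrpl52 lie between the dashed lines, and only the interval of Mrpl52 lies wholly on one side of 0.

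Mrpl52, a mitochondria-specific protein of the large subunit, was the member with the largest difference. It had 107 FPKM in mock 1 against 195 in coculture 1, and 71.6 in mock 2 against 115 in coculture 2. Coculture was 1.82-fold of mock in pair 1 and 1.61-fold in pair 2. Both coculture libraries were also above both mock libraries, though coculture 2 at 115 FPKM only just exceeded mock 1 at 107. That comparison crosses the separately made tables. On the log2(FPKM + 1) scale its difference was 0.77 ± 0.12 (limma's moderated SE, n = 2 pairs; 0.86 and 0.68 in the pairs), with a 95% interval from 0.46 to 1.08. It did not pass over all genes (limma unadjusted p = 0.0019, adjusted p = 0.127), and 152 tested genes had a smaller p. Over the 14 settings run, the adjusted p of Mrpl52 ranged from 0.0839 to 1. Its difference was 0.395 without coculture 1, 0.483 without mock 2, 1.06 without mock 1 and 1.15 without coculture 2, in fits without the block that set the tables side by side.

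With the estimated depths and GENCODE vM21 exon lengths, Mrpl52 corresponded to about 1795 and 3485 reads in mock 1 and coculture 1 and 1246 and 1550 reads in mock 2 and coculture 2, which gives a counting error of 0.042 and 0.055 on the log2 scale in the pairs. This error covers the counting of reads only, with each read taken as independent, and not variation between cultures. Its rank among the 78 genes by FPKM went from 7 to 1 in pair 1 and from 11 to 3 in pair 2. None of its exons overlaps another gene's in GENCODE vM21. In RefSeq's gene order (GRCm38.p6) its nearest protein-coding neighbours are Slc7a7, an amino acid transporter gene, and Mmp14, a membrane-bound matrix metalloproteinase gene. Mmp14 was listed at 0 in both mock libraries and at 0.475 and 0.065 FPKM in coculture, and Slc7a7 had 1.69 FPKM in mock 1 against 2.48 in coculture 1, and 3.39 in mock 2 against 4.24 in coculture 2. Of the 4 nearest protein-coding genes on each side, 5 passed the filter on low values. Slc7a7 and Lrp10 were higher in coculture in both pairs, while Oxa1l (-0.27 and -0.46), Abhd4 (-0.20 and -0.08) and Prmt5 (-0.03 and -0.04) were lower in both, so the neighbours did not share 1 direction.

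**Figure D3:**
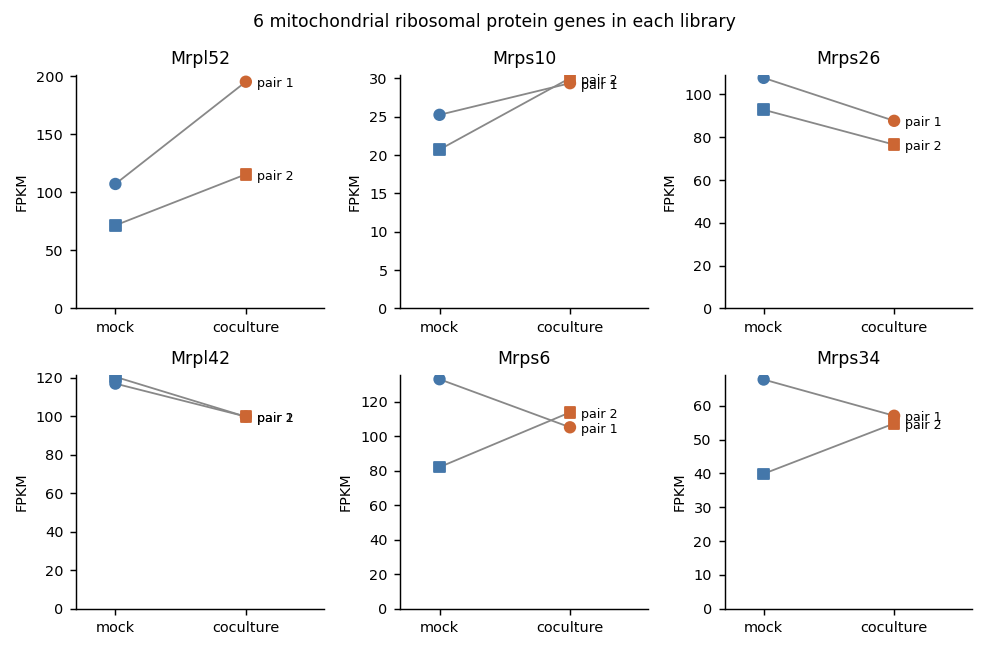
FPKM of 6 genes in each library, with pair 1 as circles, pair 2 as squares, mock in blue and coculture in orange, and a line joining the libraries of a pair (all axes start at 0). Mrpl52 and Mrps10 are higher and Mrps26 and Mrpl42 lower in coculture in both pairs, while Mrps6 and Mrps34 are lower in pair 1 and higher in pair 2.

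At least a 1.2-fold difference, taken on FPKM + 1, in the same direction in both pairs was met by 1 of the 78 genes upward, Mrpl52, and by 1 downward, Mrps26, where 5.36% of tested genes met it upward and 11.7% downward. Within pair 1 alone, 6 genes were 1.2-fold higher and 4 lower (11.3% and 27.9% of tested genes), and within pair 2, 8 were higher and 6 lower (17.0% and 24.0%). Both coculture libraries were above both mock libraries for 9 genes and below both for 9, beside 10.3% and 21.5% of all tested genes. This comparison sets levels of separately made tables side by side. The same limit holds below wherever coculture values are compared with both mock values, or groups are said to overlap or not. Across the 78 genes the differences of the first and the second pair correlated with Pearson's r = 0.26 and Spearman's rho = 0.20, and without Mrpl52 with r = 0.11. Over all 10202 tested genes r was 0.48. These correlations are across genes that share libraries, and genes are not independent replicates.

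**Figure D4:**
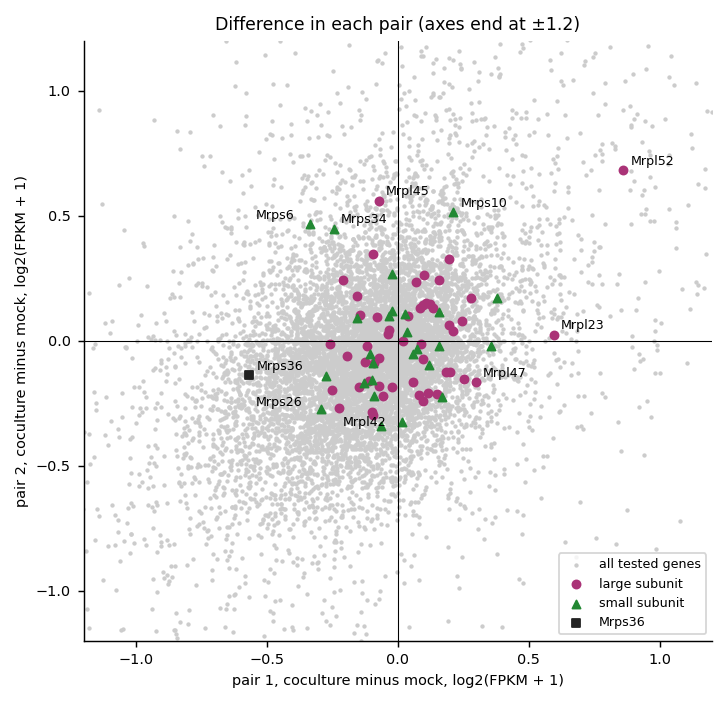
Difference in pair 1 against difference in pair 2 (coculture minus mock, log2(FPKM + 1)) for large subunit genes (circles), small subunit genes (triangles) and Mrps36 (square), over all tested genes in grey. The members gather around 0 with Mrpl52 alone at the upper right, and Mrpl45, Mrps6 and Mrps34 are higher in pair 2 only.

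The small subunit decodes the messenger RNA, and 26 members belong to it. Their median difference was 0.02 (-0.02 in pair 1 and -0.03 in pair 2), with 5 higher and 8 lower in both pairs. Mrps10, a protein of the small subunit head with a bacterial counterpart, had 25.3 FPKM in mock 1 against 29.4 in coculture 1, and 20.7 in mock 2 against 30.0 in coculture 2. Its coculture values were above both mock values, but the difference of 0.36 ± 0.14 did not pass (limma adjusted p = 0.344). Mrps26, a mitochondria-specific protein, had 108 FPKM in mock 1 against 87.7 in coculture 1, and 92.9 in mock 2 against 76.6 in coculture 2. Both coculture values of Mrps26 were below both mock values, with nearly equal differences of -0.29 and -0.28 in the pairs (-0.28 ± 0.11, limma adjusted p = 0.344).

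Of the other small subunit genes with the same sign in both pairs, Mrps35, a mitochondria-specific protein, had 39.7 FPKM in mock 1 against 32.7 in coculture 1, and 48.2 in mock 2 against 43.6 in coculture 2. Mrps11, the counterpart of a bacterial platform protein, had 30.0 FPKM in mock 1 against 27.4 in coculture 1, and 25.7 in mock 2 against 22.8 in coculture 2. Both were lower in coculture within each pair, by 0.21 and 0.15 on the log2 scale, and for both the groups overlapped. Mrps21, the most abundant member by mean FPKM, had 156 FPKM in mock 1 against 170 in coculture 1, and 129 in mock 2 against 120 in coculture 2, so its pairs went opposite ways. Mrps33, among the 3 least abundant, lay between 6.93 and 9.32 FPKM in all 4 libraries.

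In some small subunit genes the pairs disagreed by more than most members differed at all. Mrps6, the counterpart of bacterial S6, went from 133 to 105 FPKM in the first pair and from 82.0 to 114 in the second (differences of -0.34 and 0.47). In GENCODE vM21 19.9% of the exon bases of Mrps6 overlap Gm49711 on the same strand, which was not analysed here, and 10.4% overlap Slc5a3, a myo-inositol transporter gene on the same strand, which went from 21.8 to 6.54 FPKM in the first pair and from 18.5 to 20.9 in the second. Mrps34, a mitochondria-specific gene, went from 67.7 to 57.0 FPKM in the first pair and from 39.9 to 54.7 in the second. Its exons overlap those of Nme3 on the same strand, over 37.0% of its exon bases, and those of Mapk8ip3 on the other strand, over 63.4%. The pair differences of Nme3 were -0.45 and 0.09, and those of Mapk8ip3 were -0.10 and 0.33. Slc5a3 thus had the same pair of signs as Mrps6, and Nme3 and Mapk8ip3 the same as Mrps34. Other members with a large overlap differed in this. Mrps25 (-0.02 and 0.26) overlaps Nr2c2 (-0.65 and -0.12) over 69.8% of its exon bases, without the same signs. Nor did Mrpl43 (-0.21 and 0.24) share the signs of Twnk (-0.14 and -0.09), with an overlap of 33.4%. Mrpl19 and Gcfc2, with 36.0%, were both lower in both pairs. Whether reads were split between overlapping genes was not tested.

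The bacterial protein S18 has 3 counterparts in mammalian mitochondria. Mrps18c, in the place of S18 itself, went from 72.4 to 92.9 FPKM in the first pair and from 54.7 to 53.9 in the second. Mrps18b, another small subunit protein, had 32.5 FPKM in mock 1 against 42.5 in coculture 1, and 25.05 in mock 2 against 28.3 in coculture 2, so that it differed by 0.27 ± 0.12 (limma adjusted p = 0.40). Mrps18a, which sits in the large subunit, had 51.8 FPKM in mock 1 against 53.2 in coculture 1, and 55.8 in mock 2 against 59.9 in coculture 2. The paralogs thus differed by 0.17, 0.27 and 0.07 on the log2 scale, none past the test, with 95% intervals that all included 0.

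Mrps36 carries a ribosomal name but is known as a subunit of the 2-oxoglutarate dehydrogenase complex of the tricarboxylic acid cycle. It had the lowest level of all members in pair 2 and, apart from Mrpl36, in pair 1. It had 4.18 FPKM in mock 1 against 2.50 in coculture 1, and 4.25 in mock 2 against 3.77 in coculture 2, the lowest difference of all members at -0.35 ± 0.20 (limma adjusted p = 0.478). Its interval from -0.89 to 0.18 was among the widest. Both coculture values were below both mock values, with most of the gap in pair 1. At the estimated depths it corresponded to only about 80 and 51 reads in mock 1 and coculture 1, and 85 and 58 in mock 2 and coculture 2. The counting error was then 0.26 and 0.25 on the log2 scale in the pairs.

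The large subunit, which holds the peptidyl transferase centre, took 51 members. Their median difference was 0.01 (0.06 in pair 1 and -0.01 in pair 2), with 16 higher and 15 lower in both pairs. The ratio of summed small to large subunit FPKM was 0.507 in mock 1 and 0.473 in coculture 1, and 0.477 in mock 2 and 0.471 in coculture 2. This ratio was a little lower in coculture in both pairs, by less in pair 2 than the mock libraries differed from each other. In pair 2 the large subunit sum went from 2221 to 2235 FPKM, and Mrpl52, which is part of it, from 71.6 to 115. Mrpl36, listed near 0 in pair 1 only, is also part of this sum. The small subunit sum of pair 2 went from 1060 to 1053 FPKM. Mrpl52 rose there by more FPKM than the whole large subunit sum did. Without Mrpl52, the ratio would be lower in coculture in pair 1 only, and a little higher in pair 2. This holds with or without Mrpl36.

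Behind Mrpl52, the large subunit genes named as highest, ranked by the smaller of the pair differences, were Mrpl17, Mrpl32, Mrpl27, Mrpl55 and Mrpl22. Mrpl17, with a bacterial counterpart, had 16.6 FPKM in mock 1 against 19.1 in coculture 1, and 11.5 in mock 2 against 14.7 in coculture 2 (0.26 ± 0.13, limma adjusted p = 0.430). Mrpl32, known as a substrate of the inner membrane protease AFG3L2, had 48.9 FPKM in mock 1 against 59.5 in coculture 1, and 49.6 in mock 2 against 56.0 in coculture 2, with both coculture values above both mock values. Mrpl27, which reaches towards the peptidyl transferase centre, had 29.1 FPKM in mock 1 against 32.5 in coculture 1, and 20.6 in mock 2 against 24.5 in coculture 2. Mrpl55 and Mrpl22, the latter at the exit tunnel, both differed by 0.13. None of these genes passed the test, and all their intervals included 0.

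Among the large subunit genes with the lowest values by the same ranking, Mrpl42, a mitochondria-specific protein, had 117 FPKM in mock 1 against 99.7 in coculture 1, and 120 in mock 2 against 99.7 in coculture 2. Its groups did not overlap, and the differences were -0.23 and -0.27 in the pairs (-0.25 ± 0.11, limma adjusted p = 0.388). Mrpl49, also mitochondria-specific, had 37.3 FPKM in mock 1 against 31.1 in coculture 1, and 35.3 in mock 2 against 30.6 in coculture 2, again without overlap (-0.23 ± 0.11, limma adjusted p = 0.430). Mrpl37 had 57.6 FPKM in mock 1 against 51.9 in coculture 1, and 45.5 in mock 2 against 39.9 in coculture 2. Mrps30, which despite its name belongs to the large subunit and resembles Mrpl37 in structure, had 43.0 FPKM in mock 1 against 40.8 in coculture 1, and 41.6 in mock 2 against 36.6 in coculture 2.

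Mrpl12, the stalk protein that contacts translation factors, was the member with the highest level in both libraries of pair 2. It had 110 FPKM in mock 1 against 102 in coculture 1, and 135 in mock 2 against 120 in coculture 2, so that it differed by -0.14 ± 0.11 (limma adjusted p = 0.602). Mrpl23, at the exit tunnel and of low abundance, went from 4.36 to 7.09 FPKM in the first pair but only from 4.55 to 4.64 in the second. Mrpl45, known to tie the large subunit to the inner membrane, went from 31.96 to 30.3 FPKM in the first pair and from 33.5 to 49.9 in the second. Mrpl47 went the other way, from 38.6 to 47.6 FPKM in the first pair and from 35.5 to 31.5 in the second. The last 3 genes show how far a difference seen in only 1 pair could reach.

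Members with a bacterial counterpart and members found in mitochondria only did not part. The 48 former had a median difference of 0.02 (0.06 and -0.02 in the pairs) and the 29 latter 0.0019 (-0.07 and -0.02). All 48 with a bacterial counterpart had an interval within 2-fold, as did 28 of the 29 others, Mrpl52 being the exception. The 45 members whose exons overlap no other gene's had a median of 0.01, and the 33 with an overlap 0.0040.

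Levels of the members were spread over a wide range that coculture hardly moved. From 64 to 68 of the 78 genes lay between 10 and 100 FPKM, 4 to 8 above and 6 below, depending on the library. Across the 78 genes, log2(FPKM + 1) levels in mock and coculture had Pearson's r of 0.985 in pair 1 and 0.979 in pair 2, a description over genes that share libraries and a table. Between mock 1 and mock 2, in different tables, r was 0.749, or 0.908 without Mrpl36. Mrpl36, chosen after its values were seen, was listed at 0.144 and 0 FPKM in mock 1 and coculture 1 but at 55.7 and 53.4 FPKM in mock 2 and coculture 2, so it passed the filter through the second table alone. A further 4 members stood over 2-fold apart between the mock libraries, also chosen after their values were seen: Mrpl48 (21.7 and 5.04 FPKM), Mrpl58 (41.5 and 10.9 FPKM), Mrpl43 (52.2 and 22.2 FPKM) and Mrps17 (17.15 and 43.7 FPKM). In coculture the same genes stood at 23.0 and 4.20, 46.2 and 9.28, 45.1 and 26.5, and 16.7 and 46.8 FPKM, so these gaps lie between the tables and not between the groups. Mrpl58, a peptidyl-tRNA hydrolase that is built into the large subunit, differed by -0.03 ± 0.15 (0.15 and -0.21 in the pairs).

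Other genes of mitochondrial translation, from lists outside the name pattern, had medians from -0.19 to -0.04, below the 0.01 of the members. Over all tested genes the median was -0.07, with 21.5% higher and 42.2% lower in both pairs. Of all tested genes 0.127% were called higher and 0% lower. These shares belong beside the counts of each list that follows. Of 6 proteins of the mitochondrial ribosome or its membrane insertion site that carry other symbols, 0 were called, 1 was higher and 3 lower in both pairs, and the median was -0.04. Oxa1l, the insertase that receives the nascent chains, had 34.2 FPKM in mock 1 against 28.2 in coculture 1, and 47.5 in mock 2 against 34.4 in coculture 2 (-0.36 ± 0.12, limma adjusted p = 0.310). Chchd1, a small subunit protein, had 74.3 FPKM in mock 1 against 84.1 in coculture 1, and 67.3 in mock 2 against 83.3 in coculture 2 (limma adjusted p = 0.407). Of 15 translation factors and messenger RNA binding proteins 0 were called, 3 were higher and 10 lower in both pairs, with a median of -0.07. Guf1, a back-translocating elongation factor, differed by -0.33 ± 0.14, and Mtrf1l, a release factor, by -0.31 ± 0.17.

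Of 24 assembly factors of the mitochondrial ribosome, 0 were called, and the median was -0.04. In both pairs 4 were higher and 7 lower, where 21.5% and 42.2% of all tested genes were. Mettl17, which helps the small subunit to mature, had 18.1 FPKM in mock 1 against 11.5 in coculture 1, and 19.0 in mock 2 against 12.2 in coculture 2. Its groups did not overlap and the pairs were alike (-0.61 ± 0.13, limma adjusted p = 0.199). Mrm2, a methyltransferase of the large ribosomal RNA, had 6.27 FPKM in mock 1 against 3.93 in coculture 1, and 5.32 in mock 2 against 4.08 in coculture 2. Ddx28, an RNA helicase chosen after its values were seen, went from 14.9 to 43.9 FPKM in the first pair and from 15.5 to 14.4 in the second.

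Of 17 mitochondrial aminoacyl-tRNA synthetases, 0 were called, and the median was -0.19 (-0.14 and -0.06 in the pairs). In both pairs 2 were higher and 8 lower, where 21.5% and 42.2% of all tested genes were. Lars2, for leucine, had 23.9 FPKM in mock 1 against 35.5 in coculture 1, and 28.8 in mock 2 against 35.9 in coculture 2, while Cars2, for cysteine, had 16.2 FPKM in mock 1 against 11.8 in coculture 1, and 15.3 in mock 2 against 11.3 in coculture 2. Of 12 tested genes for mitochondrial DNA upkeep and transcription, 0 were called, 3 were higher and 6 lower in both pairs, with a median of -0.06. Polg2, the accessory subunit of the mitochondrial DNA polymerase, had 6.98 FPKM in mock 1 against 4.14 in coculture 1, and 3.40 in mock 2 against 2.16 in coculture 2 (-0.56 ± 0.17, limma adjusted p = 0.293). Mgme1, a mitochondrial exonuclease, had 10.2 FPKM in mock 1 against 7.58 in coculture 1, and 8.96 in mock 2 against 5.82 in coculture 2. Polrmt, the mitochondrial RNA polymerase, chosen after its values were seen, had 12.6 FPKM in mock 1 against 8.04 in coculture 1, and 10.1 in mock 2 against 7.78 in coculture 2 (-0.46 ± 0.16, limma adjusted p = 0.310). Mitochondrially encoded genes were not analysed here.

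Of 9 tested regulators of mitochondrial biogenesis, 0 were called. In both pairs 1 was higher and 4 were lower, where 21.5% and 42.2% of all tested genes were. Myc, a transcription factor known to act on many ribosomal and mitochondrial genes, had 5.16 FPKM in mock 1 against 43.3 in coculture 1, and 1.03 in mock 2 against 36.9 in coculture 2 (3.53 ± 0.35, limma adjusted p = 0.071). Ppargc1b, a coactivator of mitochondrial genes, had 6.02 FPKM in mock 1 against 1.25 in coculture 1, and 4.58 in mock 2 against 3.34 in coculture 2 (-1.003 ± 0.35, limma adjusted p = 0.320). Nrf1 and Gabpa, chosen because their motifs were searched, differed by -0.10 ± 0.16 and -0.01 ± 0.12. The members had a median of 0.01 in the same libraries in which Myc was higher and Ppargc1b lower in both pairs. Neither regulator passed the test, and whether either acts on the members in these cells was not tested.

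**Figure D5:**
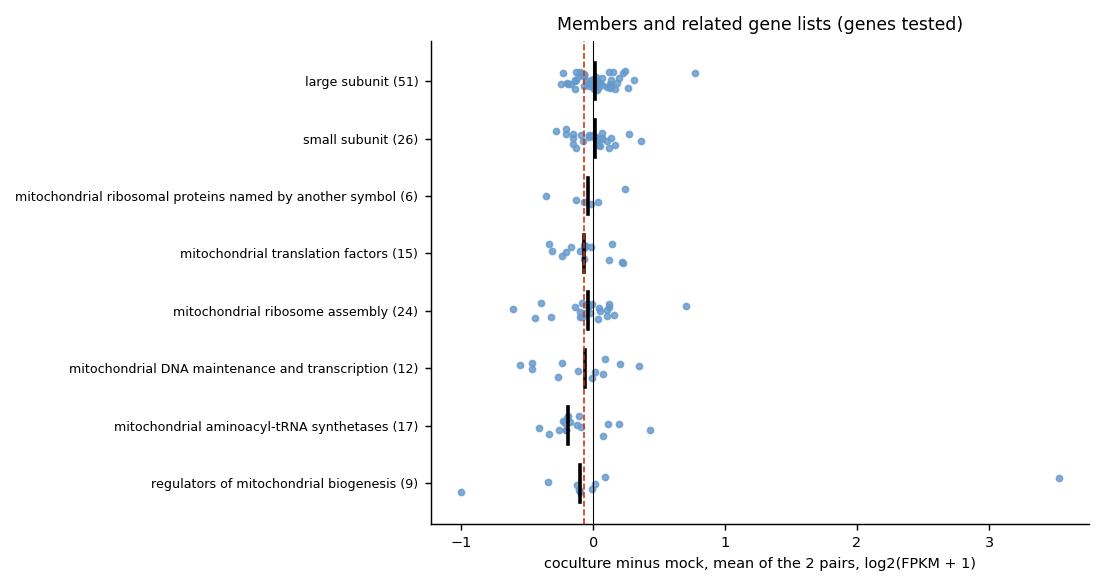
Difference of each tested gene (points, coculture minus mock, mean of the pairs, log2(FPKM + 1)) in the subunits and in related lists, with the list median as a black bar, 0 as a thin line and the median of all tested genes as a dashed line. The subunit medians lie at 0.01 and 0.02, the other medians between -0.19 and -0.04, and Myc at 3.53 is the far point of the last list.

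The nuclear-encoded respiratory chain and the cytosolic ribosome give the nearest comparison. The 77 tested respiratory chain genes had a median difference of -0.03 (0.05 in pair 1 and -0.15 in pair 2), with 0 called. In both pairs 15 were higher and 20 lower, where 21.5% and 42.2% of all tested genes were. The 80 tested cytosolic ribosomal protein genes had a median difference of 0.04 (0.19 in pair 1 and -0.13 in pair 2), with 0 called. Signs were opposite in the pairs for 64 of them, and for 35.8% of all tested genes. In the mitochondrial set the pair medians lay 0.04 apart, in the respiratory chain 0.20 and in the cytosolic ribosome 0.32. Whether these gaps differ between the sets was not tested.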

How the data were processed

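Messenger RNA libraries of 4 samples were used, 2 per group. The authors deposited FPKM in 2 tables, 1 per replicate number. The tools named, per the submitters' processing notes, are Trim Galore, Subread and featureCounts, with hg38, a human build, although the symbols are those of mouse genes. Tool versions, the annotation and gene lengths are not stated there. The first table has 23427 rows and the second 25239, so levels are comparable within a table only. Unnamed rows (23) and rows with repeated names (287, at most 1.07% of a library), all in the first table, were left out. Symbols found in only 1 table were left out too, which left 22554 genes.

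Genes that reached 1 FPKM in 2 or more libraries were fitted on log2(FPKM + 1) with limma 3.58.1 in R 4.3.3 (trended prior, pair as block, two-sided, 1 residual degree of freedom, prior 3.43), and called at an adjusted p under 0.05. The script was tested on simulated data. Libraries of a pair deviated together (correlation across genes 0.76), and the block follows the tables. Depth was estimated as the total that turns FPKM of 0.1 to 0.6 into whole reads (within 3%) with GENCODE vM21 exon lengths, which made 49.6% to 57.9% of values whole.

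Genes were named by rule: every member past the test, the 8 largest in each direction with the same sign in both pairs (ranked by the smaller of the pair differences), the 4 with pairs furthest apart, the 3 highest and 3 lowest in level, a few named for their role, and 2 per related list. The members and lists were chosen with earlier results of these data known. Rescaled, median-centred or quantile-normalized values, pseudocounts of 0.1 and 0.5, no filter or 5 FPKM, no trend, no block and leaving out each library were the alternatives.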

Additional observations from a re-analysis of the deposited data

How the results depend on the processing

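Of the 78 members, 0 were called in either direction under every setting run, with 0 to 7 at an unadjusted p under 0.05. The median member difference was -0.0436 after rescaling to a common total (all tested genes -0.12), 0.0763 after median centring (-0.0063), and -0.0862 to 0.117 without 1 library each, fits that are unblocked and so cross the tables. After median centring 33 members were higher and 11 lower in both pairs (30.2% and 32.2% of tested genes). Without the 33 members with an exon overlap, or without Mrpl36, both chosen after seeing the data, the median was 0.01. Over all genes, limma called 13 higher and 0 lower, 25 and 1 after rescaling, 85 and 18 after median centring, 8 higher after quantile normalization, 22 with a pseudocount of 0.1, 0 with no filter (1514 at an unadjusted p under 0.05), 25 and 1 with at least 5 FPKM, 1 without the trend, 1 with no replicate block, and 0 without any single library (176 to 523). With no replicate block 0 members were called. Differences near 0 changed sign for Mrps21 (-0.0446 after rescaling, -0.0666 after quantile normalization), Mrps33 (-6.31e-06 after rescaling) and Mrpl58 (0.0335 after median centring). Leaving out 1 library reversed the sign in 20 of 108 fits of named members. Over these fits Mrpl12 ranged from -0.283 to 0.0096, Mrpl27 from -0.0408 to 0.438, Mrpl37 from -0.352 to 0.0198, Mrpl45 from -0.106 to 0.594, Mrpl47 from -0.226 to 0.355, Mrpl52 from 0.395 to 1.15, Mrpl55 from -0.0225 to 0.286, Mrpl58 from -1.131 to 1.067, Mrps6 from -0.280 to 0.410, Mrps18a from -0.0150 to 0.153, Mrps18b from -0.0117 to 0.559, Mrps18c from -0.2195 to 0.555, Mrps21 from -0.237 to 0.257, Mrps33 from -0.141 to 0.239 and Mrps34 from -0.273 to 0.476. The cause was not tested.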
